A study of Mus musculus with 9 samples.

Results

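The genes described here are 42 genes that encode lysosomal hydrolases, their activators, lysosomal membrane proteins and the proteins that mature and sort the enzymes. They were chosen by a list of names with no cut on measured values, but with earlier results of these data known. All 42 were found among the 16428 genes measured in mouse embryonic fibroblasts (MEFs), connective tissue cells grown in culture. Gene IDs were paired with symbols through the GENCODE M21 annotation. All cells had the genotype CARM1f/f ER-Cre, that is, a Carm1 gene flanked by loxP sites together with Cre recombinase in a form that tamoxifen derivatives switch on. Carm1 encodes a protein arginine methyltransferase that modifies histones and transcriptional coactivators. KO cells were given 4-hydroxytamoxifen (4-OHT) at 2 uM over 6 days, so that Cre could excise the floxed part of Carm1. CARM1i cells were treated with 1 uM TP-064, an inhibitor of the CARM1 enzyme, for 6 days. WT cells received no treatment and carried the same floxed allele and recombinase. Each group has 3 libraries of polyadenylated RNA. No group is labelled as vehicle and none received 4-OHT without the floxed gene. In the KO group 4-OHT and the deletion therefore cannot be told apart. In the CARM1i group inhibition of CARM1 and other effects of the TP-064 treatment cannot be told apart either. KO against CARM1i also sets different agents against each other. The labels do not say that the 3 libraries of a group came from separate cultures, so the p-values speak of the spread among libraries alone, and part or all of that spread may be technical.

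Lysosomes are acidic compartments in which hydrolases break down lipids, glycans, glycogen and proteins that arrive by endocytosis and autophagy. Most soluble hydrolases receive mannose 6-phosphate tags in the Golgi and are carried to the compartment by mannose 6-phosphate receptors, while heavily glycosylated membrane proteins line it and transporters return the products to the cytosol. Many of these genes carry, near their transcription start, a palindromic E-box word that the factors TFEB and TFE3 are known to bind. Inherited loss of single enzymes of the set causes storage diseases in humans.

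Because of that background, the promoter letters of the genes are shown first. RefSeq promoter windows on GRCm38.p6, each of 300 bases (250 before and 50 after a transcription start), were held for 36 of the 42 genes. Asah1, Galns, Hgsnat, Aga, Npc1 and M6pr had none. The word CACGTG, which reads the same on both strands, was present in 11 of the 36 genes with a window (30.6%) and in 8.09% of all 27025 genes with a window. That background is larger than the 16428 genes measured here, and the share among expressed genes alone was not computed. The longer word TCACGTGA, which contains the shorter word, was present in Cln3, Gla, Igf2r, Mcoln1 and Sumf1, which is 13.9% of the 36 genes against 1.12% of all genes. The longest word searched was TCACGTGA with a G before it and a C after it, and it was present in Cln3 and Igf2r, which is 5.56% of the 36 genes against 0.37% of all genes. A match is a description of letters and not a measured binding site. The stretches that hold the word are printed 5′ to 3′ on the strand of the gene, with CACGTG in capitals, for the 11 genes whose changes are set beside them further on. For Cln3 and Mcoln1, which hold 2 words each, the stretch around the word nearer the start is shown.
Gla, chrX:134601182-134601244, minus strand: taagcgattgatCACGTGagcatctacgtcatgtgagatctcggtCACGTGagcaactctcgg
Naglu, chr11:101070009-101070038, plus strand: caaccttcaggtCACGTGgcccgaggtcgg
Gaa, chr11:119267811-119267840, plus strand: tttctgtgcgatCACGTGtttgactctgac
Lamp1, chr8:13159088-13159160, plus strand: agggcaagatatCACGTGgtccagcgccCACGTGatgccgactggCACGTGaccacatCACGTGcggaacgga
Mcoln1, chr8:3500462-3500491, plus strand: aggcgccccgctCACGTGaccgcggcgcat
Sgsh, chr11:119355522-119355551, minus strand: gggcctgccgtgCACGTGaccgtggggagc
Cln3, chr7:126583340-126583369, minus strand: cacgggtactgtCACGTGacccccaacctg
Glb1, chr9:114401018-114401047, plus strand: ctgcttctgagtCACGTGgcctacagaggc
Sumf1, chr6:108185584-108185606, minus strand: agcaccacaggtCACGTGatctc
Arsa, chr15:89477425-89477452, minus strand: tcaactcagtgtCACGTGttgtctgctc
Igf2r, chr17:12769707-12769766, minus strand: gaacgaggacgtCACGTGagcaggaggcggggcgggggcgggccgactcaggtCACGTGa
Lamp1, which encodes a major glycoprotein of the lysosomal membrane, held the word 4 times within 61 bases of its start, and Gla held it 2 times, at positions -227 and -194 from the start. In all, the 11 genes held 18 copies, each upstream of the RefSeq start. In 8 of the 11 genes the GENCODE M21 gene begins upstream of that start, by 1 base in Arsa and by 2581 bases in Cln3. The copies of Cln3 therefore lie inside the GENCODE gene. So do the Naglu copy at -73, with a gene that begins 82 bases upstream, and the Mcoln1 copy at -45, with 62 bases. The Sgsh copy at -29 crosses the beginning of its gene, 26 bases upstream.

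**Figure D1:**
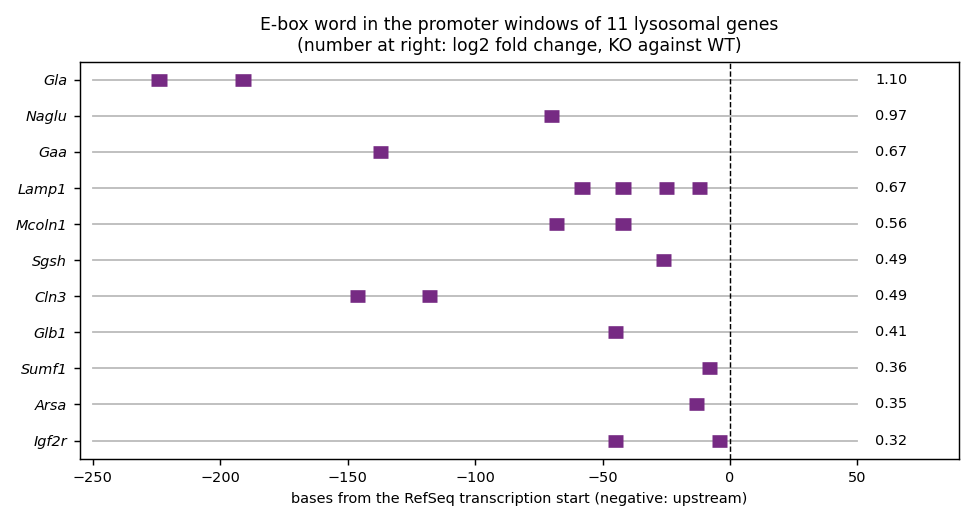
Each row is 1 of the 11 genes with CACGTG in its RefSeq promoter window. The grey line is the window, purple bars are copies of the word, the x axis gives bases from the transcription start, and the number at the right is the log2 fold change in KO against WT. All 18 copies lie upstream of the RefSeq start, and Lamp1 holds 4 of them.

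Depth and the makeup of the libraries were checked once. Totals of recovered reads ran from 28657018 to 35842771 per library. The 42 genes had mean normalized read counts between 195 and 55877 over the 9 libraries, so all of them entered the test. Carm1 had normalized counts of 794, 711 and 769.8 in the KO libraries, 1112, 1072 and 986 in the CARM1i libraries and 1079, 1143 and 1091 in the WT libraries, counted over the whole gene, so this value does not check the deletion itself. CARM1i replicate 3 stood apart from the other libraries of its group, at -19.5 on the third principal component (9.58% of the variance) against 11.0 and 11.7. On the same component WT replicate 3 was at 10.3, against -8.65 and -5.68 for the other WT libraries. Fibroblast markers were abundant, with summed normalized counts of 347102 to 365978 in KO, 353461 to 384102 in CARM1i and 377619 to 387646 in WT libraries. These sums are weighted towards Fn1, with means of 161679 in KO, 133909 in CARM1i and 122653 in WT libraries. Of these 10 markers Lum was nearly absent, at 2.02 to 11.8 normalized counts. Of the 9 tested, 7 were lower and 2 higher in KO against WT, with log2 fold changes of -1.27 to 0.40. In CARM1i against WT 4 were lower and 2 higher, with -0.48 to 0.28. Over all genes 41.9% were called in KO and 19.1% in CARM1i, both against WT. Macrophages are rich in lysosomes, and of 8 macrophage markers listed 5 were among the genes measured, with sums of 304 to 341 in KO, 294 to 329 in CARM1i and 259 to 321 in WT libraries. Of the 4 tested, 1 was higher and 1 lower in KO against WT, and in CARM1i against WT the unadjusted limma p-values of the 4 were 0.203 to 0.419. Cd68, a lysosomal membrane protein used as a macrophage marker, had normalized counts of 54.0, 105 and 99.2 in the KO libraries, 40.5, 43.8 and 66.3 in the CARM1i libraries and 34.5, 56.8 and 36.4 in the WT libraries, and the KO and WT libraries overlapped. It was higher in KO against WT, with a log2 fold change (± SE) of 0.98 ± 0.27 (adjusted p = 0.00704). Cd14, a surface receptor of the same list, was lower, with a log2 fold change of -0.43 ± 0.14 (adjusted p = 0.0214), and lost this call without KO replicate 2, KO replicate 3 or WT replicate 2 (adjusted p = 0.0892, 0.0818 and 0.107). The defining markers Ptprc, Adgre1 and Itgam were absent from the deposited values, which hold only genes that reach 10 reads in some library. The part of other cell types in the results was not tested. Of 4 epithelial markers only Krt18 was in the deposited values, under that same limit of 10 reads. It had 91.9 to 126 normalized counts in KO, 32.4 to 43.8 in CARM1i and 23.3 to 48.0 in WT libraries. Krt18 was higher in KO against WT, with a log2 fold change of 1.58 ± 0.25 (adjusted p = 4.58e-05). In CARM1i against WT Krt18 did not pass the test, with 0.10 ± 0.25 (adjusted p = 0.838) on the same scale. The sums of 4 endothelial markers were 288 to 341 in KO, 239 to 262 in CARM1i and 264 to 300 in WT libraries. They are weighted towards Tek, with means of 238 in KO, 197 in CARM1i and 234 in WT. Of the 3 tested, 0 were called in KO or CARM1i against WT, with log2 fold changes of 0.02 to 0.69 in KO and -0.25 to -0.03 in CARM1i. The KO and WT libraries did not overlap for 2 of the 3, Cdh5 and Kdr, against 52.6% of all genes.

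In KO against WT, 40 of the 42 genes rose and none fell at an adjusted p below 0.05 (limma, Benjamini-Hochberg over all 14560 genes tested). Over all genes 41.9% were called in this comparison, 21.4% higher and 20.5% lower. The median log2 fold change of the 42 genes was 0.39, with a range of 0.12 to 1.10, against a median of -0.0043 over all genes tested. At least 1.5-fold changes were found in 12 genes and a change above 2-fold in Gla alone. The KO and WT libraries did not overlap for 40 of the 42 genes, against 52.6% of all genes. At an unadjusted p below 0.05 no gene of the set was lower, and edgeR and DESeq2 on the recovered reads also called 0 lower. In these bulk samples, more cells of a type and more RNA per cell cannot be told apart.

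In CARM1i against WT, 30 of the 42 genes rose and none fell, where 19.1% of all genes were called, 10.5% higher and 8.59% lower. The median log2 fold change of the set was 0.16, with a range of -0.11 to 0.69, against -0.0047 over all genes. Gla and Hexa were the 2 genes changed at least 1.5-fold. The CARM1i and WT libraries did not overlap for 33 of the 42 genes, against 33.4% of all genes. No gene of the set was lower at an unadjusted p below 0.05, and edgeR and DESeq2 called 0 lower here too.

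The KO libraries were also set directly against the CARM1i libraries. In that comparison 37 of the 42 genes were higher in KO and none was lower, where 23.6% of all genes were called, 11.5% higher and 12.1% lower. The median log2 fold change of the set was 0.25, with a range of 0.04 to 0.43, against 0.0021 over all genes. These libraries did not overlap for 39 of the 42 genes, against 36.9% of all genes. Again 0 genes were lower at an unadjusted p below 0.05 in limma, and edgeR and DESeq2 called 0 lower. In 31 of the 42 genes all 3 KO libraries lay above all 3 CARM1i libraries, which in turn lay above all 3 WT libraries, an order found in 7.49% of all genes. The 3 comparisons share their libraries, so they are not independent of each other.

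**Figure D2:**
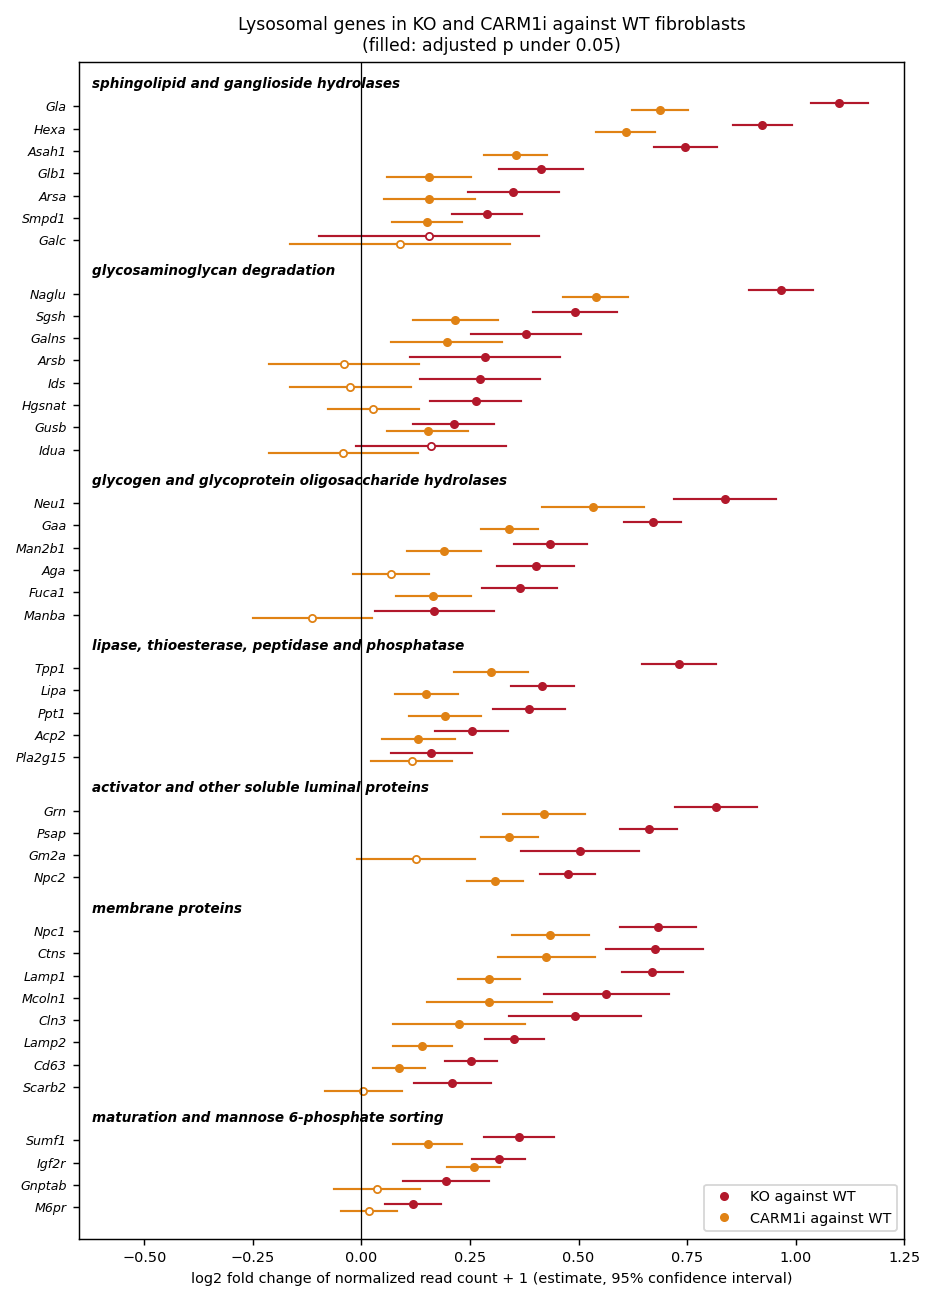
Points are log2 fold changes (x axis) of KO (red) and CARM1i (orange) against WT with 95% confidence intervals, for the 42 genes grouped by role. Filled points passed an adjusted p of 0.05. All KO points lie above 0, at 0.12 to 1.10, and CARM1i points lie between -0.11 and 0.69.

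The hydrolases of sphingolipids and gangliosides held the gene with the highest fold change, Gla. Of these 7 genes, 6 rose in KO and 6 in CARM1i, both against WT, and 6 were higher in KO than in CARM1i, with median log2 fold changes of 0.41, 0.16 and 0.26. Gla (mm10 chromosome X, 134588149 to 134601125) encodes alpha-galactosidase A, which removes terminal galactose from globotriaosylceramide and is deficient in Fabry disease. Its normalized read counts were 10044, 10441 and 10305 in the KO libraries, 7739.5, 7496 and 7885 in the CARM1i libraries and 4769, 4724 and 4859.7 in the WT libraries. The groups did not overlap, KO being highest and WT lowest. The log2 fold change of Gla was 1.10 ± 0.03 (adjusted p = 4.72e-14) in KO against WT, 0.69 ± 0.03 (adjusted p = 1.29e-10) in CARM1i against WT and 0.41 ± 0.03 (adjusted p = 2.48e-08) in KO against CARM1i.

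Hexa (chromosome 9, 59539540 to 59565109) encodes the alpha subunit of beta-hexosaminidase, which degrades GM2 ganglioside. Its normalized read counts were 12662, 13189.6 and 12794 in the KO libraries, 10372, 10461 and 10237 in the CARM1i libraries and 6679.6, 6619 and 7087 in the WT libraries, again in 3 groups that did not overlap. Hexa changed on the log2 scale by 0.92 ± 0.03 (adjusted p = 3.71e-13) in KO against WT, 0.61 ± 0.03 (adjusted p = 1.26e-09) in CARM1i against WT and 0.31 ± 0.03 (adjusted p = 1.04e-06) in KO against CARM1i. Asah1, acid ceramidase, followed with mean normalized counts of 10047 ± 179.6 in KO, 7663 ± 271 in CARM1i and 5991 ± 216 in WT (SD, n = 3 each). Its log2 fold changes were 0.75 ± 0.03 in KO and 0.36 ± 0.03 in CARM1i, both against WT.

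Changes were smaller in the other sphingolipid enzymes. Glb1, the lysosomal beta-galactosidase, had log2 fold changes of 0.41 ± 0.05 in KO and 0.16 ± 0.05 in CARM1i. Arsa, the sulfatase that acts on sulfatide, had 0.35 ± 0.05 in KO and 0.16 ± 0.05 in CARM1i, and Smpd1, acid sphingomyelinase, had 0.29 ± 0.04 in KO and 0.15 ± 0.04 in CARM1i. These 3 genes passed the test in each of the 3 comparisons. Galc, which hydrolyses galactosylceramide, was the exception, with normalized counts of 216, 214 and 186 in the KO libraries, 188, 192 and 207 in the CARM1i libraries and 199.8, 154 and 202 in the WT libraries. Its libraries overlapped in every pair of groups, and the 95% interval of its KO log2 fold change, -0.10 to 0.41, includes changes as large as that of Arsa (adjusted p = 0.324). Galc also had the lowest level per length of the 42 genes.

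Of the 8 enzymes of glycosaminoglycan degradation, 7 rose in KO and 4 in CARM1i, both against WT, and 6 were higher in KO than in CARM1i, with median log2 fold changes of 0.28, 0.09 and 0.26. Naglu (chromosome 11, 101070012 to 101077672), the alpha-N-acetylglucosaminidase of the heparan sulfate pathway, had normalized read counts of 4084, 4140.1 and 4065 in the KO libraries, 3040.1, 3153 and 2954 in the CARM1i libraries and 2062, 2099 and 2128 in the WT libraries. The 3 groups did not overlap. For Naglu the log2 fold change was 0.97 ± 0.04 (adjusted p = 6.61e-13) in KO against WT, 0.54 ± 0.04 (adjusted p = 1.46e-08) in CARM1i against WT and 0.43 ± 0.04 (adjusted p = 8.26e-08) in KO against CARM1i.

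Sgsh, the sulfamidase of the same pathway, had normalized read counts of 1902, 1854 and 1906 in the KO libraries, 1508, 1613 and 1556 in the CARM1i libraries and 1344, 1271 and 1412 in the WT libraries. KO libraries again lay above CARM1i libraries and these above WT libraries. Its log2 fold change was 0.49 ± 0.05 (adjusted p = 9.92e-08) in KO against WT, 0.22 ± 0.05 (adjusted p = 0.0026) in CARM1i against WT and 0.28 ± 0.05 (adjusted p = 0.000234) in KO against CARM1i. Galns, which removes sulfate from keratan sulfate and chondroitin sulfate, had log2 fold changes of 0.38 ± 0.06 in KO and 0.20 ± 0.06 in CARM1i and passed the test in both.

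For 3 genes of glycosaminoglycan breakdown a rise was called in KO and not in CARM1i. Hgsnat, a membrane enzyme that acetylates heparan sulfate ends, had a log2 fold change of 0.26 ± 0.05 (adjusted p = 0.000316) in KO and 0.03 ± 0.05 (adjusted p = 0.767) in CARM1i. Ids, iduronate 2-sulfatase, had 0.27 ± 0.07 (adjusted p = 0.00255) in KO and -0.03 ± 0.07 (adjusted p = 0.842) in CARM1i. Arsb, which desulfates dermatan sulfate, had 0.28 ± 0.08 (adjusted p = 0.0093) in KO and -0.04 ± 0.08 (adjusted p = 0.793) in CARM1i. The direct test placed KO above CARM1i for each of them, with adjusted p-values of 0.00186 for Hgsnat, 0.00265 for Ids and 0.00728 for Arsb. Gusb, beta-glucuronidase, showed another arrangement, with log2 fold changes of 0.21 ± 0.04 (adjusted p = 0.000826) in KO and 0.15 ± 0.04 (adjusted p = 0.0221) in CARM1i, and 0.06 ± 0.04 (adjusted p = 0.379) between KO and CARM1i. The 95% interval of that last difference is -0.03 to 0.15. Idua, alpha-L-iduronidase, had normalized counts of 394, 377 and 426 in the KO libraries, 351, 356 and 332 in the CARM1i libraries and 345, 389 and 339 in the WT libraries. Its KO and WT libraries overlapped, and none of its 3 comparisons passed (adjusted p = 0.127 in KO against WT, with a 95% interval of -0.01 to 0.33).

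Enzymes that degrade glycogen and the glycans of glycoproteins rose in KO without exception. Against WT, all 6 were higher in KO and 4 in CARM1i, and all 6 were higher in KO than in CARM1i, with median log2 fold changes of 0.42, 0.18 and 0.29. Gaa, acid alpha-glucosidase, which degrades glycogen and is deficient in Pompe disease, had normalized read counts of 14989, 14656 and 15044 in the KO libraries, 11839.6, 11900.4 and 11792 in the CARM1i libraries and 9308, 9033 and 9736 in the WT libraries. The 3 groups did not overlap. Its log2 fold change was 0.67 ± 0.03 (adjusted p = 1.04e-11) in KO against WT, 0.34 ± 0.03 (adjusted p = 6.87e-07) in CARM1i against WT and 0.33 ± 0.03 (adjusted p = 3.73e-07) in KO against CARM1i.

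Neu1, the lysosomal sialidase, had a higher fold change and a lower level per length than Gaa. Its normalized read counts were 1407, 1454 and 1376 in the KO libraries, 1059, 1206 and 1172 in the CARM1i libraries and 813, 752 and 806 in the WT libraries, in the same order of groups and without overlap. Neu1 changed by 0.84 ± 0.06 (adjusted p = 1.07e-09) on the log2 scale in KO against WT, by 0.53 ± 0.06 (adjusted p = 2.54e-06) in CARM1i against WT and by 0.30 ± 0.06 (adjusted p = 0.000545) in KO against CARM1i. Man2b1, the acidic alpha-mannosidase, and Fuca1, the alpha-L-fucosidase, passed all 3 comparisons, with KO log2 fold changes of 0.43 ± 0.04 and 0.36 ± 0.04. Aga, which cleaves the bond between asparagine and the glycan, rose in KO by 0.40 ± 0.04 (adjusted p = 3.88e-07) and had 0.07 ± 0.04 (adjusted p = 0.288) in CARM1i. Manba, beta-mannosidase, had 0.17 ± 0.06 (adjusted p = 0.0466) in KO and -0.11 ± 0.06 (adjusted p = 0.256) in CARM1i, the lowest CARM1i estimate of the set, and was higher in KO than in CARM1i by 0.28 ± 0.06 (adjusted p = 0.00387). The KO call of Manba lay near the threshold and was often lost with fewer libraries. Without KO replicate 1 or 3 or without any of the 3 WT replicates its adjusted p lay above 0.05, at up to 0.163. Its log2 fold change in these fits was 0.14 to 0.18.

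The lipase, thioesterase, peptidase and phosphatase group rose in KO in 5 of 5 genes, in CARM1i in 4 and in KO against CARM1i in 4, with median log2 fold changes of 0.39, 0.15 and 0.19. Tpp1, tripeptidyl peptidase 1, had normalized read counts of 2696, 2762 and 2785 in the KO libraries, 1980.2, 2008 and 2121 in the CARM1i libraries and 1679, 1600.3 and 1686 in the WT libraries. Its groups did not overlap, and its log2 fold change was 0.73 ± 0.04 (adjusted p = 8.72e-11) in KO against WT, 0.30 ± 0.04 (adjusted p = 3.67e-05) in CARM1i against WT and 0.43 ± 0.04 (adjusted p = 3.26e-07) in KO against CARM1i. The last of these is the highest difference between KO and CARM1i in the set.

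Lipa, acid lipase, which hydrolyses cholesteryl esters and triglycerides, had normalized read counts of 3795, 3779 and 3896 in the KO libraries, 3162, 3176 and 3188 in the CARM1i libraries and 2804, 2821 and 2968 in the WT libraries. The CARM1i libraries lay within 3162 to 3188, between the other groups. Its log2 fold change was 0.42 ± 0.03 (adjusted p = 1.95e-08) in KO against WT, 0.15 ± 0.03 (adjusted p = 0.00485) in CARM1i against WT and 0.27 ± 0.03 (adjusted p = 1.56e-05) in KO against CARM1i. Ppt1, a thioesterase that removes palmitate from proteins, had log2 fold changes of 0.39 ± 0.04 in KO and 0.19 ± 0.04 in CARM1i, and Acp2, the lysosomal acid phosphatase, had 0.25 ± 0.04 in KO and 0.13 ± 0.04 in CARM1i, all past the threshold. Pla2g15, a phospholipase, passed in KO with 0.16 ± 0.04 (adjusted p = 0.00683) and in no other comparison, with 0.12 ± 0.04 (adjusted p = 0.0784) in CARM1i and a difference between KO and CARM1i of 0.04 ± 0.04 (adjusted p = 0.525).

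Among the activators and other soluble luminal proteins, all 4 rose in KO, 3 rose in CARM1i and 4 were higher in KO than in CARM1i, with median log2 fold changes of 0.58, 0.32 and 0.35. Psap (chromosome 10, 60277627 to 60302597) encodes the precursor of the saposins, which present sphingolipids to their hydrolases. It was the most counted gene of the set, with normalized read counts of 68363, 68750.3 and 69572 in the KO libraries, 54009, 54625 and 56848 in the CARM1i libraries and 42833, 43018 and 44875 in the WT libraries. The groups were fully separated. The log2 fold change of Psap was 0.66 ± 0.03 (adjusted p = 1.23e-11) in KO against WT, 0.34 ± 0.03 (adjusted p = 7.07e-07) in CARM1i against WT and 0.32 ± 0.03 (adjusted p = 5.43e-07) in KO against CARM1i.

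Grn, progranulin, which is processed into granulins in the lysosome, had normalized read counts of 18982, 19633 and 19477 in the KO libraries, 14299.6, 13793 and 16112 in the CARM1i libraries and 10789.9, 10762 and 11430.2 in the WT libraries. CARM1i replicate 3 was the highest library of its group and still lay below every KO library. Its log2 fold change was 0.82 ± 0.04 (adjusted p = 8.25e-11) in KO against WT, 0.42 ± 0.04 (adjusted p = 3.14e-06) in CARM1i against WT and 0.40 ± 0.04 (adjusted p = 3.48e-06) in KO against CARM1i. Npc2, the soluble cholesterol carrier, had log2 fold changes of 0.47 ± 0.03 in KO and 0.31 ± 0.03 in CARM1i. Gm2a, the activator that presents GM2 ganglioside to beta-hexosaminidase, rose in KO by 0.50 ± 0.06 (adjusted p = 4.69e-06) and had 0.13 ± 0.06 (adjusted p = 0.198) in CARM1i, with a direct difference of 0.38 ± 0.06 (adjusted p = 0.000282).

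**Figure D3:**
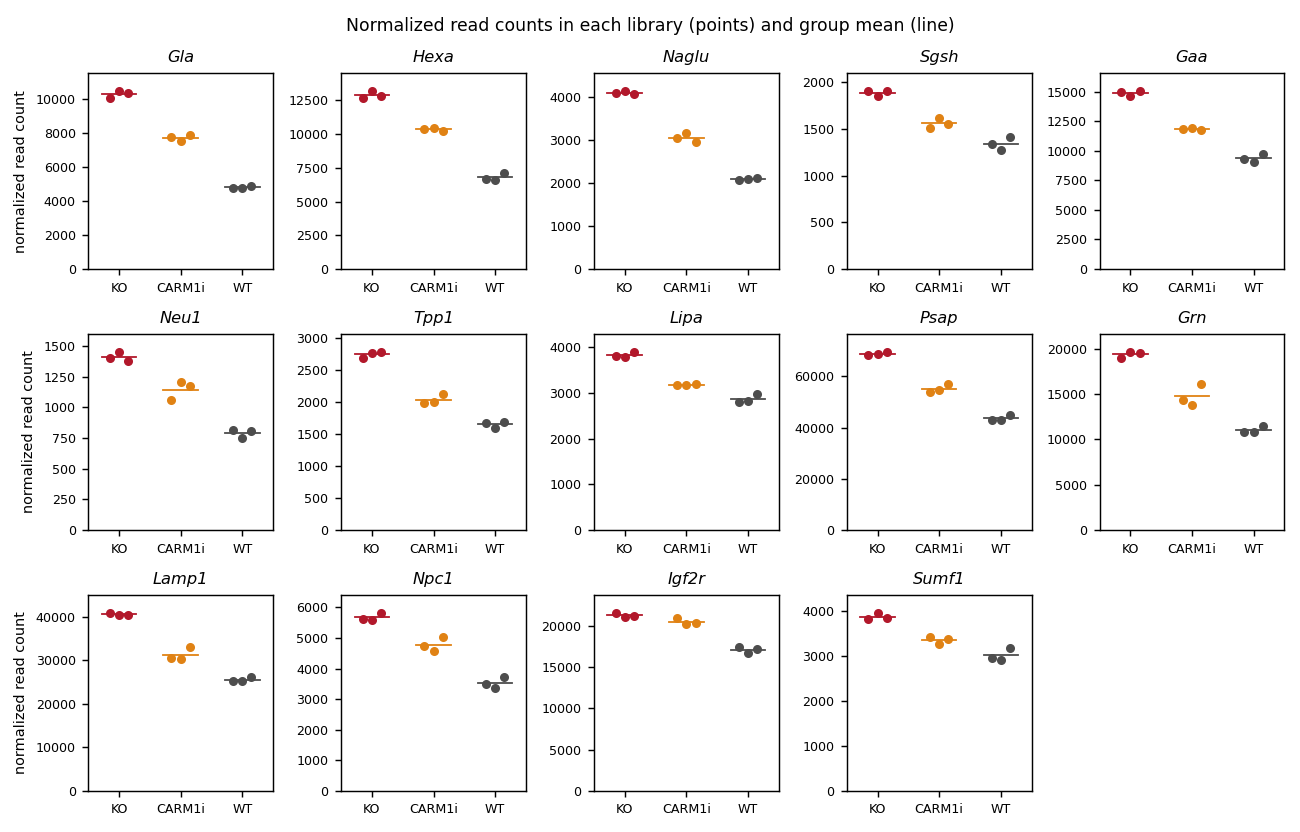
Normalized read counts (y axis, from 0) in each library (points) and group means (lines) for 14 genes, the pair with the smallest adjusted p in KO against WT in each role. KO (red) lies above CARM1i (orange) and CARM1i above WT (grey) with no overlap in all 14 panels, for example 10044 to 10441 in KO, 7496 to 7885 in CARM1i and 4724 to 4859.7 in WT for Gla. The choice by this p favours genes in which KO and WT are separate. Of all 42 genes 31 have this order, against 7.49% of all genes tested.

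The proteins of the lysosomal membrane all rose in KO. Against WT, 8 of 8 genes were higher in KO and 7 in CARM1i, and 8 were higher in KO than in CARM1i, with median log2 fold changes of 0.53, 0.26 and 0.25. Lamp1 (chromosome 8, 13159161 to 13175338) had normalized read counts of 40889, 40442 and 40351 in the KO libraries, 30516, 30262 and 33075 in the CARM1i libraries and 25151, 25280.5 and 26039 in the WT libraries. The 3 groups did not overlap. On the log2 scale Lamp1 changed by 0.67 ± 0.03 (adjusted p = 2.79e-11) in KO against WT, 0.29 ± 0.03 (adjusted p = 6.81e-06) in CARM1i against WT and 0.38 ± 0.03 (adjusted p = 2.25e-07) in KO against CARM1i.

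Npc1, which exports cholesterol from the lysosome together with Npc2, had normalized read counts of 5618, 5579 and 5826 in the KO libraries, 4745, 4569.7 and 5037 in the CARM1i libraries and 3506, 3379 and 3728 in the WT libraries, in the same order and without overlap. Its log2 fold change was 0.68 ± 0.04 (adjusted p = 3.68e-10) in KO against WT, 0.44 ± 0.04 (adjusted p = 1.10e-06) in CARM1i against WT and 0.25 ± 0.04 (adjusted p = 0.000257) in KO against CARM1i. Ctns, the cystine exporter, had log2 fold changes of 0.68 ± 0.05 in KO and 0.43 ± 0.05 in CARM1i, and Mcoln1, a cation channel that releases calcium from lysosomes, had 0.56 ± 0.07 in KO and 0.29 ± 0.07 in CARM1i. Cln3, the membrane protein lost in a juvenile neuronal ceroid lipofuscinosis, had 0.49 ± 0.07 in KO and 0.23 ± 0.07 in CARM1i. Lamp2, the close relative of Lamp1, changed less, by 0.35 ± 0.03 in KO and 0.14 ± 0.03 in CARM1i, and so did the tetraspanin Cd63, by 0.25 ± 0.03 in KO and 0.09 ± 0.03 in CARM1i. These genes passed all 3 comparisons.

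Scarb2 encodes LIMP-2, an abundant glycoprotein of the lysosomal membrane that also acts as a sorting receptor. It was the membrane gene with no call in CARM1i, where its log2 fold change was 0.00 ± 0.04 (adjusted p = 0.957) with a 95% interval of -0.08 to 0.09. Its normalized counts were 4574, 4548 and 4382 in the KO libraries, 3919, 3699 and 4108 in the CARM1i libraries and 3798, 3789.8 and 4096 in the WT libraries. The CARM1i and WT libraries overlapped, and all KO libraries lay above both. Scarb2 had a log2 fold change of 0.21 ± 0.04 (adjusted p = 0.000523) in KO against WT and 0.20 ± 0.04 (adjusted p = 0.00143) in KO against CARM1i.

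Genes of enzyme maturation and sorting had the lowest median change in KO. All 4 rose in KO, 2 rose in CARM1i and 3 were higher in KO than in CARM1i, with median log2 fold changes of 0.26, 0.09 and 0.13. Igf2r, the large mannose 6-phosphate receptor, which also takes up insulin-like growth factor 2, had normalized read counts of 21581, 21097 and 21241 in the KO libraries, 20889, 20177 and 20371 in the CARM1i libraries and 17421, 16685 and 17244 in the WT libraries. Both treated groups lay above WT, and KO and CARM1i lay close together without overlap. The log2 fold change of Igf2r was 0.32 ± 0.03 (adjusted p = 7.34e-08) in KO against WT and 0.26 ± 0.03 (adjusted p = 5.20e-06) in CARM1i against WT. The difference between KO and CARM1i was 0.06 ± 0.03 (adjusted p = 0.173), with an upper 95% limit of 0.12.

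Sumf1, the enzyme that makes the formylglycine every sulfatase needs, had normalized read counts of 3816, 3955 and 3844 in the KO libraries, 3408, 3256 and 3374 in the CARM1i libraries and 2958, 2911 and 3165 in the WT libraries, without overlap between groups. Its log2 fold change was 0.36 ± 0.04 (adjusted p = 4.00e-07) in KO against WT, 0.15 ± 0.04 (adjusted p = 0.00792) in CARM1i against WT and 0.21 ± 0.04 (adjusted p = 0.000471) in KO against CARM1i. Gnptab, which encodes catalytic subunits of the phosphotransferase that starts the mannose 6-phosphate tag, had 0.19 ± 0.05 (adjusted p = 0.0027) in KO and 0.04 ± 0.05 (adjusted p = 0.66) in CARM1i. M6pr, the small mannose 6-phosphate receptor, had the lowest KO log2 fold change of the 42 genes, 0.12 ± 0.03 (adjusted p = 0.00435), and 0.02 ± 0.03 (adjusted p = 0.761) in CARM1i. The call of M6pr in KO was lost under quantile normalization (0.07, adjusted p = 0.0863).

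Sorted by calls, 28 genes were higher in all 3 comparisons. Gusb and Igf2r were higher in both treated groups with no call between KO and CARM1i. A further 9 genes (Aga, Arsb, Gm2a, Gnptab, Hgsnat, Ids, M6pr, Manba and Scarb2) were higher in KO against both WT and CARM1i with no call in CARM1i against WT. Pla2g15 was called in KO against WT alone, and Galc and Idua were not called. How often each of these patterns occurs among all genes tested was not computed, so the counts have no background beside them. For a rise in all 3 comparisons that share can be at most 10.5%, the part of all genes called higher with TP-064 than without treatment. Counted over the 4 roles made up of enzymes, 24 of 26 genes rose in KO, 18 rose in CARM1i and 22 were higher in KO than in CARM1i.

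**Figure D4:**
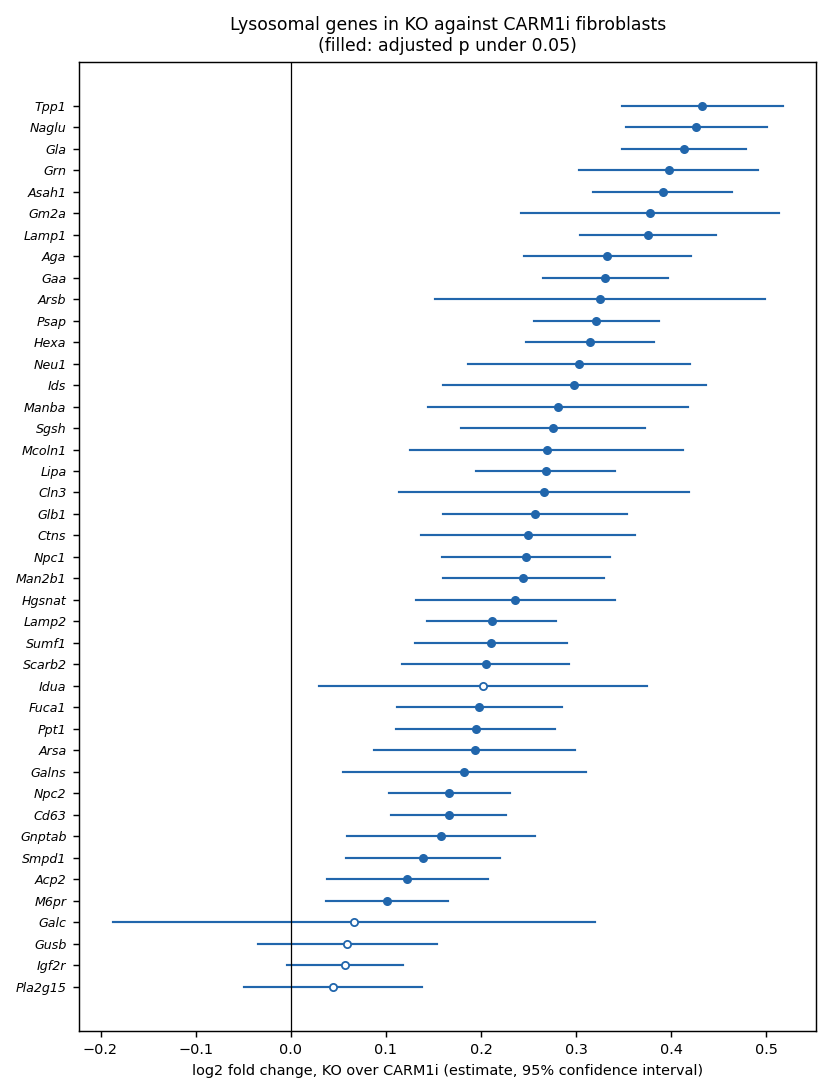
Points are log2 fold changes of KO over CARM1i (x axis) with 95% confidence intervals for the 42 genes, in order of size, and filled points passed an adjusted p of 0.05. All estimates lie between 0.04 and 0.43, and Galc, Gusb, Igf2r, Idua and Pla2g15 did not pass.

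Calls near the threshold were not stable when a library was left out, which also leaves fewer libraries for the test. In CARM1i against WT, 10 genes lost their call when some library was left out, with adjusted p-values of 0.0505 to 0.178. Without WT replicate 2 these were Acp2, Arsa, Cd63, Cln3, Fuca1, Galns, Glb1, Gusb and Sumf1, which left 21 genes called. WT replicate 1 (Acp2, Arsa, Cd63, Cln3), WT replicate 3 (Cd63, Cln3, Galns, Glb1, Gusb), CARM1i replicate 1 (Acp2, Arsa, Cln3, Glb1) and CARM1i replicate 2 (Arsa, Cd63, Cln3, Galns, Smpd1) had shorter lists. Without CARM1i replicate 3, which stood apart within its group, Acp2, Cd63, Galns and Gusb lost their call, Pla2g15 gained one (adjusted p = 0.0287) and 27 genes were called. Without KO replicate 1 Cd63 lost its call, and without KO replicate 2 or 3 Arsa and Cd63 did. The log2 fold changes did not move in these fits, at 0.09 for Cd63 and 0.16 for Arsa. In KO against CARM1i, 6 genes lost their call without some library, with adjusted p-values of 0.0549 to 0.154. Acp2 and Galns did so without any of the KO replicates and without CARM1i replicate 1 or 2. The call of Gnptab was lost without KO replicate 1, KO replicate 2 or CARM1i replicate 1, that of M6pr without KO replicate 1, KO replicate 2 or CARM1i replicate 2, that of Smpd1 without KO replicate 1 and that of Cln3 without KO replicate 3. In KO against WT Arsb lost its call without WT replicate 1 (0.0679), beside Manba.

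The share of reads that fell in the 42 genes gives the sum of these changes. They took 1.05% ± 0.00917 of the reads in KO, 0.870% ± 0.0152 in CARM1i and 0.724% ± 0.0182 in WT libraries (SD, n = 3 each). By library the share was 1.04 to 1.06% in KO, 0.860 to 0.888% in CARM1i and 0.713 to 0.745% in WT, with no overlap. Without the 4 most counted genes, Psap, Lamp1, Npc2 and Igf2r, the shares were 0.554% in KO, 0.459% in CARM1i and 0.389% in WT. Sphingolipid hydrolases took 0.129% of the reads in KO, 0.102% in CARM1i and 0.0747% in WT libraries. Sorting genes took 0.116% in KO, 0.109% in CARM1i and 0.0973% in WT libraries. In none of the 7 roles did these summed shares overlap between the 3 groups. Such sums are weighted towards the most counted genes. Gene by gene, CARM1i and WT libraries did not overlap for 4 of 8 genes of glycosaminoglycan degradation and 2 of 4 sorting genes, against 33.4% of all genes.

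**Figure D5:**
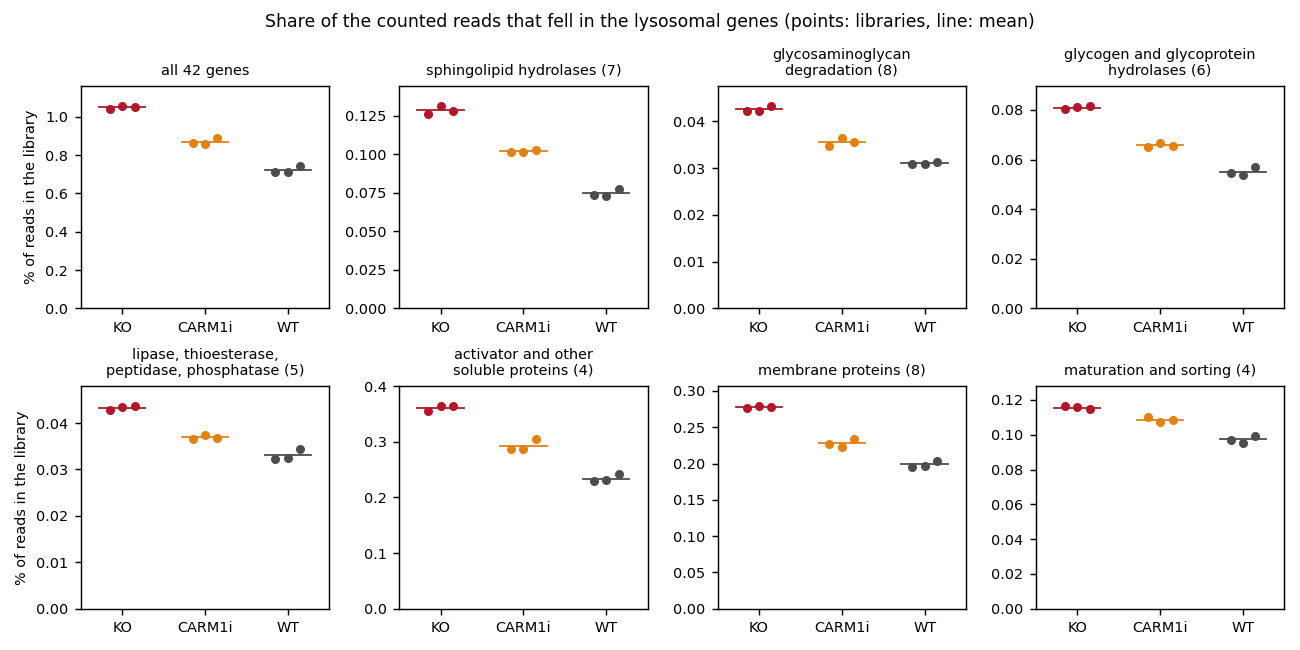
The y axis, from 0, is the percentage of a library's counted reads that fell in all 42 genes (first panel) and in each of the 7 roles. Points are libraries and lines are group means, with KO in red, CARM1i in orange and WT in grey. The share of all 42 genes is 1.04 to 1.06% in KO, 0.860 to 0.888% in CARM1i and 0.713 to 0.745% in WT.

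Levels between genes were compared as normalized counts per kilobase of exon. The exon length joined the exons of all annotated transcripts of a gene, for example 5438 bases for Npc2 and 14879 for Galc. The transcripts in use may be shorter, so the order of levels depends on the annotation too. Psap was highest on this scale, at 25108 per kilobase in KO, 20102 in CARM1i and 15880 in WT, followed by Lamp1 at 15163 in KO, 11695 in CARM1i and 9529 in WT. Hexa came next, at 6454 in KO, 5189 in CARM1i and 3404 in WT. At the low end stood Galc, at 13.8 in KO, 13.2 in CARM1i and 12.4 in WT, with Cln3, Arsb, Idua and Manba above it. The level had a weak relation to the KO change, with a Spearman rho of 0.286 over the 42 genes, given as a description because the genes share their libraries. The upper 21 genes by level had a median KO log2 fold change of 0.39 and the lower 21 a median of 0.41.

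The promoter words shown above were set beside the changes, as a description. The 11 genes with CACGTG had a median log2 fold change of 0.49 in KO against WT, with a range of 0.32 to 1.10, and the 25 genes whose windows lacked it had 0.35, with a range of 0.16 to 0.92, so the ranges overlap. In CARM1i against WT the medians were 0.26 with the word and 0.15 without it, and in KO against CARM1i 0.27 and 0.21. Gla and Naglu, the genes with the highest KO fold changes, hold the word, while Hexa, Neu1 and Grn, which also changed by over 0.8 on the log2 scale, had windows without it.

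Outside the 42 genes, 40 other lysosomal genes were listed, also with earlier results known, and 39 were measured. Against WT, 30 of the 39 rose and 0 fell in KO, while 21 rose and 0 fell in CARM1i, and 24 were higher and 1 lower in KO than in CARM1i, with medians of 0.36, 0.17 and 0.18. Over all genes tested, 21.4% were higher and 20.5% lower in KO, and 10.5% higher and 8.59% lower in CARM1i, both against WT. In KO against CARM1i 11.5% of all genes were higher and 12.1% lower. At an unadjusted p below 0.05, limma had 0 of the 39 lower in KO and 1 in CARM1i, and edgeR and DESeq2 called 0 lower in either. Of 18 further hydrolases 14 rose in KO, 11 in CARM1i and 12 were higher in KO than in CARM1i. Of 15 membrane proteins and transporters 11 rose in KO and 6 in CARM1i, and of 6 sorting genes 5 rose in KO and 4 in CARM1i.

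Of the 4 other genes with the smallest adjusted p in KO against WT, Dpp7 and Scpep1 are given here. Dpp7, a dipeptidyl peptidase, had normalized counts of 3726, 4051 and 3984 in the KO libraries, 2810.3, 2859 and 3028 in the CARM1i libraries and 2015, 2172 and 2072 in the WT libraries, without overlap between groups. Dpp7 changed on the log2 scale by 0.91 ± 0.04 (adjusted p = 1.23e-11) in KO against WT, 0.47 ± 0.04 (adjusted p = 6.18e-07) in CARM1i against WT and 0.44 ± 0.04 (adjusted p = 6.57e-07) in KO against CARM1i. Scpep1, a serine carboxypeptidase, had log2 fold changes of 0.57 ± 0.03 (adjusted p = 1.91e-10) in KO and 0.36 ± 0.03 (adjusted p = 7.24e-07) in CARM1i, both against WT, and 0.21 ± 0.03 (adjusted p = 0.000149) between KO and CARM1i. Tpcn2, a cation channel of the lysosomal membrane, was the gene lower in KO than in CARM1i, with a log2 fold change of -0.25 ± 0.09 (adjusted p = 0.04), and lost that call without KO replicate 1 (adjusted p = 0.141), KO replicate 2 (0.119) or CARM1i replicate 1 (0.177).

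Some counts may have gained or lost reads where genes overlap. The counting's strand setting is not given in the sources used here, and 13 of the 42 genes have exons that overlap exons of a gene on the other strand, so those reads may not be separable and the counts of these genes are uncertain. They are Hexa, Galc, Arsa, Grn, Arsb, Idua, Sgsh, Ppt1, Acp2, Lamp1, Npc1, Cln3 and Gnptab. The longest overlap is 2411 bases in Arsb, followed by 955 bases of Sgsh with Card14. In Lamp1 the overlap with Grtp1 is 249 bases and in Hexa that with Tmem202 is 255. Glb1 shares 165 exon bases with Tmppe on its own strand. Cd63 and M6pr have annotated pseudogenes, Cd63-ps and M6pr-ps, with which reads could be shared.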

How the data were processed

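The values are normalized read counts (a signal) in 9 libraries for 16428 genes, deposited by the authors after they had divided each library's reads by its size factor. Per the submitters' processing notes the build was mm10 and the tools were DESeq 1.18.0, HTSeq 0.6.0 and TopHat2 2.0.10. Which annotation release and strand setting the counting used is not given in the sources used here. Whole reads could be recovered for 100% of the values of every library, within 1e-06 of a read. In KO replicate 2 a read is worth 1.01, which an automatic test cannot tell from unscaled counts. The table lists only genes that reach 10 reads in some library. Of the IDs, 16413 matched GENCODE M21 without their version and 15 did not.

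Values were tested as log2(value + 1) in limma 3.58.1 (R 4.3.3, trend by intensity), a scale that makes fold changes of weakly counted genes smaller than they are. A mean of at least 10 was required, which 14560 genes reached. The fit held all 9 libraries in 3 groups, and the Benjamini-Hochberg adjustment ran over all genes tested, with a threshold of 0.05. Errors are SD over libraries or SE of the fit. edgeR 4.0.16 and DESeq2 1.42.0 on recovered reads, other filters, pseudocounts and scalings, a replicate block and leaving out each library were the alternatives. The methods were tested on simulated data. Values in every library are given for the 2 genes of each role with the smallest adjusted p in KO against WT, and for genes that miss the threshold or are singled out in the text, the latter chosen after their values were seen. Replicates were not copies of each other, since the chi-square per gene between libraries of a group was 2.44 to 7.97. Of the 4 other lysosomal genes with the smallest adjusted p, 2 are not reported here. The genes and lists were chosen with earlier results of these data known.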

Additional observations from a re-analysis of the deposited data

How the results depend on the processing

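The 42 genes were refitted under 20 alternatives in each comparison. No fold change that had passed the test changed sign. The number higher in KO against WT was 38 to 40 when a library was left out and 39 to 40 under the other settings. In CARM1i against WT it was 21 to 29 and 22 to 30, and in KO against CARM1i 32 to 37 under both kinds. None was called lower in any of these fits. The call or its absence was the same in all 20 fits for 38 genes in KO, for 30 in CARM1i (both against WT) and for 34 between KO and CARM1i. Beside the losses given above, Idua passed under quantile normalization in KO against WT (adjusted p = 0.032) and in KO against CARM1i (0.0406), and Manba lost its KO call with DESeq2 (0.0757), without the intensity trend (0.0593) and when libraries were rescaled to a common total (0.0718). In CARM1i against WT, 8 genes lost their call without the intensity trend (Acp2, Arsa, Cd63, Glb1, Gusb, Lamp2, Smpd1 and Sumf1, adjusted p = 0.0512 to 0.117), 5 when only the compared groups entered the fit (Acp2, Arsa, Cd63, Cln3 and Galns, 0.0572 to 0.0805) and 4 when libraries were rescaled to a common total (Acp2, Arsa, Cd63 and Cln3, 0.0508 to 0.0909). Cln3 also lost it with DESeq2 (0.0632) and Cd63 under quantile normalization (0.183). In KO against CARM1i, 5 genes lost it without the intensity trend (Acp2, Arsa, Gnptab, M6pr and Smpd1, 0.0535 to 0.105), Galns with DESeq2 (0.0557) and Acp2 under quantile normalization (0.069). Over all genes, CARM1i against WT had 1797 calls without the intensity trend, against 2784 with it. edgeR on the recovered reads called 6150 genes in KO and 2821 in CARM1i, both against WT, and 3471 between KO and CARM1i, and DESeq2 called 5650, 2625 and 3172 in the same order. Of the 39 other lysosomal genes, 0 to 1 were lower in CARM1i against WT and 0 to 1 in KO against CARM1i when a library was left out. The gene in the first case was Arsg (-0.70 on the log2 scale without CARM1i replicate 2, adjusted p = 0.0217). In KO against CARM1i 0 were lower under quantile normalization or without the intensity trend.

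With a replicate block, 39 of the 42 genes were higher in KO and 28 in CARM1i, both against WT, 36 were higher in KO than in CARM1i, and 5865, 2553 and 3156 genes were called over all genes. The calls lost were Manba in KO against WT (adjusted p = 0.0678), Cd63 (0.069) and Cln3 (0.0535) in CARM1i against WT, and Galns in KO against CARM1i (0.055). The labels do not say that shared numbers mark a shared culture or day, so these numbers were not taken as pairs. In a check made after the fits, libraries with the same number did not deviate together, with correlations of -0.087 to 0.027. With 3 libraries per group, differences as small as the M6pr change in KO passed only in well counted genes, and for low genes such as Galc the intervals are wide.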
